A study of Mus musculus with 2 samples.

Results

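The immune cells of a tumour and those of the lymph node that drains it were compared within the same animals. CD45+ cells, that is leukocytes, came from subcutaneous MC38-OVAdim tumours, grown from a mouse colon carcinoma line injected under the skin of the flank, and from the tumour-draining lymph node (dLN) of 4 C57Bl6 mice. A cell belonged to the comparison if the deposited cell table named its sample as tumour or dLN, which held for 9192 of the 12458 cells. The tumours gave 4521 cells (1691 from WT1, 1003 from WT2, 1354 from KO1 and 473 from KO2) and the dLN gave 4671 (1140, 1056, 1018 and 1457). The remaining 3266 cells came from non-draining lymph nodes of the same mice and were not compared. All groups carried the tumour, and the labels name no drug treatment. WT1 and WT2 had the Havcr2fl/fl genotype, in which the gene for the receptor TIM-3 is flanked by recombination sites, and KO1 and KO2 were knockouts of that gene. The labels name neither the Cre driver nor the age and sex of the mice. The sort was enriched for dendritic cells, so shares of cells are shares of the sorted cells and not of the whole tissue. The labels describe Liberase and DNase digestion for both tissues and a Percoll density gradient for the tumour cells, so tissue and handling cannot be told apart.

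A tumour draws blood monocytes that turn into macrophages in the tissue, and these cells meet low oxygen, dying cells and interferon made by activated lymphocytes. The dLN instead holds recirculating naive T and B cells, which enter from blood and stay or leave according to receptors such as CCR7 and S1PR1. Dendritic cells that mature in the tissue turn on CCR7 and carry antigen to this node. TIM-3 is an inhibitory receptor of exhausted T cells that dendritic cells and macrophages also carry. Values below are mean unique molecular identifiers (UMIs, 1 per captured RNA molecule) per 10000 UMIs of a cell, averaged over all cells of a mouse and tissue. They are given in the order WT1, WT2, KO1 and KO2. Each difference is tumour minus dLN of log2(value + 0.1), so a positive value is higher in the tumour and the change of weakly expressed genes is understated. An all-cell mean moves both with how many cells of a type a tissue holds and with how much RNA each of them carries, so levels within cell classes are given beside it where the classes allow.

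Tumour cells held more UMIs, with a median of 15191 UMIs per cell (13877 to 16752 over the mice) against 4520 (3778 to 5285) in the dLN. Cells with 5% or more mitochondrial UMIs were 6.66% of tumour and 4.37% of dLN cells. The 8 profiles correlated across genes with Pearson's r of 0.971 to 0.994 within a tissue and of 0.824 to 0.861 between the tissues of 1 mouse, where genes are not independent replicates. Each of the 2 sequencing channels held 1 WT and 1 KO mouse with both tissues, and 36 cell barcodes occurred in both channels. Havcr2 (chr11:46454935-46481255 of mm10), the deleted gene, had 0.737, 0.839, 0.259 and 0.15 UMIs per 10000 in the tumours and 0.0848, 0.0453, 0.0087 and 0.0046 in the dLN. Both KO mice were below both WT mice in each tissue, and within each mouse the tumour was higher (log2 difference 1.96, SE 0.22, limma adjusted p = 0.00031). The transcript remained detectable in KO tumours, and since the removed exons are not named in the labels, tags outside them may still count. Tumour monocyte-like cells had 1.02, 1.22, 0.497 and 0.432 and tumour macrophage-like cells 0.654, 0.518, 0.0414 and 0.029 Havcr2 UMIs per 10000, so the KO residue was larger in the first class. In dLN conventional type 1 dendritic cell (cDC1)-like cells the levels were 1.21, 1.38, 0.0111 and 0.0279.

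Monocyte/macrophage-like cells made up most of the tumour leukocytes and almost none of those of the dLN, which held T-like, B-like and dendritic-like cells instead. Cells were clustered on the 2000 most variable genes and named from lineage markers. Monocyte/macrophage-like cells were 68.4, 80.6, 79.7 and 75.7% of tumour cells and 0.439, 0.379, 0.884 and 1.44% of dLN cells (76.1% ± 5.53 against 0.786% ± 0.492, SD, n = 4, exact sign-flip permutation p = 0.125, 2-sided). With 4 mice 0.125 is the smallest p this test can give, so no share could pass 0.05. The lowest tumour lay far above the highest dLN. Within this class macrophage-like cells averaged 45.7% of tumour cells and monocyte-like cells 30.4%, against 0.255% and 0.531% in the dLN. T-like cells were 7.75, 1.5, 8.20 and 8.03% of tumour cells and 43.9, 49.3, 38 and 26.1% of dLN cells, with WT2 lowest in the tumour. B-like cells were 1.48, 0.499, 1.55 and 1.69% and 21.4, 24.2, 32.1 and 53.2%. Cells of the named dendritic-like clusters were 6.09, 4.79, 1.26 and 2.11% and 33.2, 23.3, 27.9 and 17.7%. An unnamed cluster of 84 tumour cells and no dLN cell carried 3 cDC1 and 3 cDC2 markers, and counting it as dendritic-like gave 8.69, 7.48, 1.92 and 2.96% of tumour cells. For T-like, B-like and dendritic-like cells every dLN was above every tumour, with or without that cluster, and each exact p was 0.125. Natural killer (NK)-like cells were 3.90, 0.499, 2.51 and 1.90% of tumour and 0.614, 1.80, 0.589 and 0.755% of dLN cells and the tissues overlapped (exact p = 0.375). Neutrophil-like cells averaged 1.31% against 0.157%, and non-leukocyte-like cells with collagen genes 0.926% against 0 of 4671 cells. That 0 allows a share of up to 0.0642% if the pooled cells are taken as independent, which leaves out the spread between mice. Unnamed clusters held 8.23% of tumour and 0.496% of dLN cells, and the 2 of them with low depth held 281 tumour cells and 1 dLN cell.

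**Figure D1:**
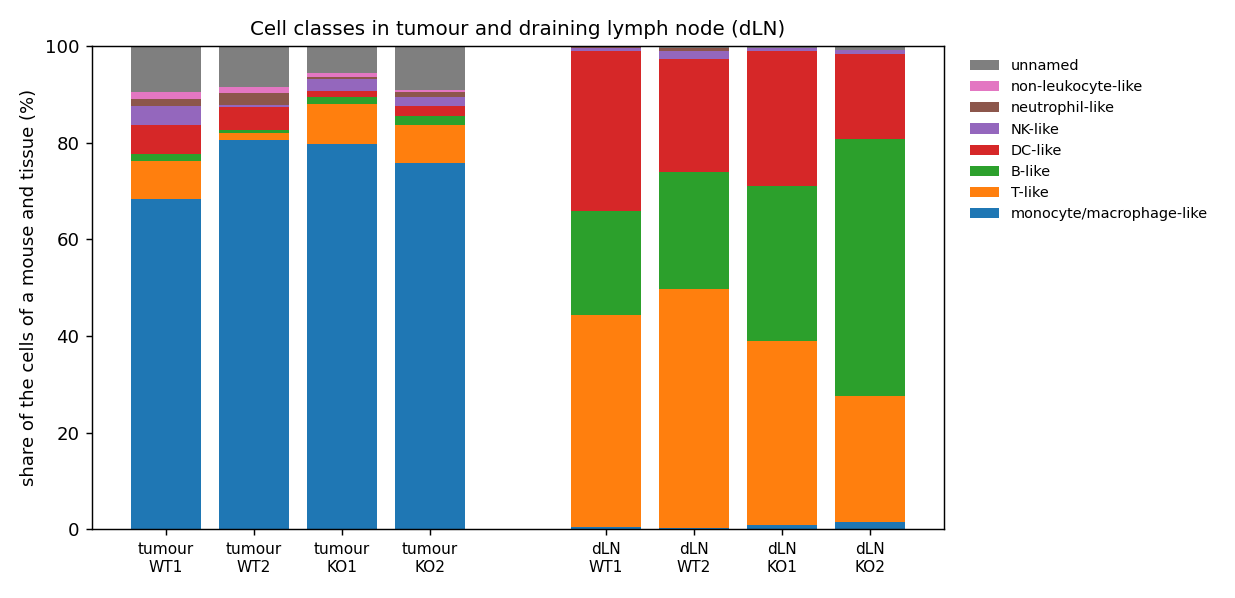
Stacked bars, 1 per mouse and tissue, show the share of its cells in each class in percent. Monocyte/macrophage-like cells averaged 76.1% of tumour and 0.786% of dLN cells, while T-like, B-like and dendritic-like shares were higher in all 4 dLN.

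Single markers also differed after each cell was thinned to 2000 UMIs, which sets all cells to 1 depth and left out 117, 51, 52 and 31 shallower tumour cells and 66, 65, 74 and 104 dLN cells. C1qa, a chain of the first complement component and a macrophage marker, was detected in 57.1, 54.5, 65.9 and 63.6% of thinned tumour cells and 3.07, 1.21, 3.07 and 1.77% of thinned dLN cells, against 61.6, 58.5, 70.1 and 65.8% and 7.98, 2.46, 6.68 and 3.29% before thinning. B-like cells, which should lack it, had it in 2.06% of the thinned dLN cells (median depth before thinning 3075 UMIs) and in 8.77% of the thinned tumour cells (3679 UMIs). The C1qa share of all dLN cells was near that of dLN B-like cells. Cd3e, a subunit of the T cell receptor complex, was detected in 8.77, 1.79, 9.22 and 8.60% of thinned tumour cells and 38.5, 42.7, 34.6 and 22.9% of thinned dLN cells, with 0.480% in dLN B-like cells (before thinning 11.8, 3.99, 11.8 and 11.8% and 44.1, 48.8, 38.3 and 27.7%). Cd79a, a signalling subunit of the B cell receptor, was detected in 2.67, 1.68, 3.84 and 4.52% and 21.7, 25.2, 32.0 and 52.8%, with 0.645% in dLN T-like cells (before thinning 4.79, 2.99, 5.76 and 7.19% and 22.5, 25.8, 33.7 and 54.8%). Ccr7, the receptor that guides cells into the node, was detected in 5.78, 2.00, 2.84 and 2.94% and 53.4, 52.9, 45.6 and 37.3%, with 10.8% in the few monocyte/macrophage-like cells of the dLN and 1.51% in those of the tumours (before thinning 10.2, 3.79, 8.35 and 8.25% and 69.6, 68.4, 56.8 and 52.4%). For these 4 markers the tissues did not overlap (exact sign-flip p = 0.125 each). For Ncr1 of NK cells and Foxp3 of regulatory T cells the exact p was 0.5, and for Xcr1 of cDC1 it was 0.25.

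Of 11542 genes tested, 7241 (62.7%) differed between tumour and dLN at an adjusted p under 0.05 (limma on the 8 profiles with the mouse as a term, Benjamini-Hochberg adjustment). Of all tested genes 30.5% (3519) were higher in the tumour and 32.2% (3722) in the dLN, and the median difference was -0.03. Averaging log2(1 + value) per cell before taking the mean turned this split into 5493 higher in the tumour and 2291 in the dLN. With cells thinned to 2000 UMIs the same averaging gave 3007 and 2865. A difference of at least 2-fold that had the same direction in all 4 mice was called for 1416 genes (12.3%), of which 873 (7.56%) were higher in the tumour and 543 (4.70%) in the dLN. The values of the 2 tissues did not overlap for 59.3% of all tested genes. With so many genes past the test, the share of a gene list that passed is read against these figures.

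Among genes with a mean of at least 2 UMIs per 10000 in the tumours, those with the largest excess there were genes of monocyte/macrophage-like cells. The 3 chains of complement C1q led them. C1qb (chr4:136880129-136886187) had 41.2, 33.9, 51.3 and 48.4 UMIs per 10000 in the tumours and 0.323, 0.0702, 0.663 and 0.443 in the dLN, a 117-fold difference of means (log2 difference 6.70, SE 0.23, limma adjusted p = 2.5e-06). C1qa had 30.1, 23.8, 37.0 and 35.9 against 0.296, 0.0595, 0.491 and 0.267 (log2 difference 6.52, SE 0.19, limma adjusted p = 1.4e-06), and C1qc differed by 6.60. For both genes even the lowest tumour was many times the highest dLN. In the dLN part of these few UMIs lay outside macrophages, since B-like and T-like dLN cells carried 0.170 and 0.160 C1qb UMIs per 10000. Arg1 (chr10:24915221-24927484), the arginase that breaks down arginine, had 8.17, 22.3, 10.2 and 15.4 against 0.0263, 0.0275, 0.0713 and 0.0739 (log2 difference 6.47, SE 0.24, limma adjusted p = 3.5e-06). It was highest in the tumour of WT2. Spp1, which encodes the matrix protein osteopontin, had 5.15, 13.1, 6.18 and 5.82 against 0.025, 0.0291, 0.0518 and 0.0974 (log2 difference 5.59, SE 0.26, limma adjusted p = 7.4e-06), and WT2 was also highest there. Tgfbi, a TGF-beta-induced matrix protein, had 18.1, 23.2, 19.8 and 17.3 against 0.337, 0.204, 0.358 and 0.392 (log2 difference 5.56, SE 0.17, limma adjusted p = 1.7e-06). Apoe, the lipid carrier apolipoprotein E, had 39.6, 35.9, 48.1 and 42.4 against 1.24, 0.597, 1.02 and 1.49 (log2 difference 5.19, SE 0.16, limma adjusted p = 1.7e-06), and B-like cells carried 59.2% of its dLN level. The 12 largest tumour differences also included AA467197 (5.72), Ms4a7 (5.54), the Fc receptor Fcgr3 (5.33) and the transglutaminase Tgm2 (5.14). For none of the 12 did the tissues overlap.

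Among genes with a mean of at least 2 UMIs per 10000 in the dLN, the largest differences toward it were mostly in B cell and mature dendritic cell genes. Cd79a (chr7:24897381-24902197) had 0.694, 0.234, 0.830 and 1.03 UMIs per 10000 in the tumours and 8.60, 9.99, 13.6 and 23.5 in the dLN (log2 difference -4.16, SE 0.22, limma adjusted p = 1.2e-05). Its dLN level was highest in KO2, where B-like cells were 53.2% of cells, and the tissues did not overlap. The B cell transcription factor Ebf1 (-3.85), the IgM Fc receptor Fcmr (-3.72), Ly6d (-3.70), the CD20 gene Ms4a1 (-3.58), Cd79b (-3.52) and H2-Ob (-3.07), a modulator of MHC class II peptide loading, followed. Jchain, the joining chain of secreted antibody, had 0.0126, 0.258, 0.0896 and 0.0193 against 2.89, 4.43, 0.163 and 2.92 (log2 difference -3.38, SE 0.67, limma adjusted p = 0.0044), and the tumour of WT2 was above the dLN of KO1. Ccr7 had 1.47, 0.258, 0.319 and 0.452 against 6.96, 5.57, 5.45 and 4.05 (log2 difference -3.20, SE 0.28, limma adjusted p = 0.00012), with every dLN above every tumour. It was not confined to dendritic cells, as it was detected in 71.8% of T-like, 64.2% of B-like and 43.5% of dendritic-like dLN cells. Fscn1, which encodes the actin-bundling fascin of mature dendritic cells, had 1.87, 0.469, 0.468 and 0.155 against 17.9, 11.7, 4.26 and 1.04 (log2 difference -3.17, SE 0.31, limma adjusted p = 0.00019), and the dLN of KO2 was below the tumour of WT1. Apol7c had 0.162, 0.0396, 0.114 and 0.0409 against 4.93, 3.10, 1.07 and 0.469 (log2 difference -3.31, SE 0.43, limma adjusted p = 0.00062) and H2-M2, a nonclassical MHC gene, 0.061, 0.0308, 0.0648 and 0.0434 against 4.12, 2.87, 0.982 and 0.334 (log2 difference -3.38, SE 0.50, limma adjusted p = 0.0012). For both, the WT nodes were above the KO nodes. Without the dendritic-like clusters, one of which these 3 genes lead, the differences of Fscn1 and Apol7c were 0.89 and 0.34, and that of H2-M2 did not pass (0.19, adjusted p = 0.0862). They were 0.89, 0.34 and 0.17 when the unnamed cluster with cDC1 and cDC2 markers was left out as well.

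**Figure D2:**
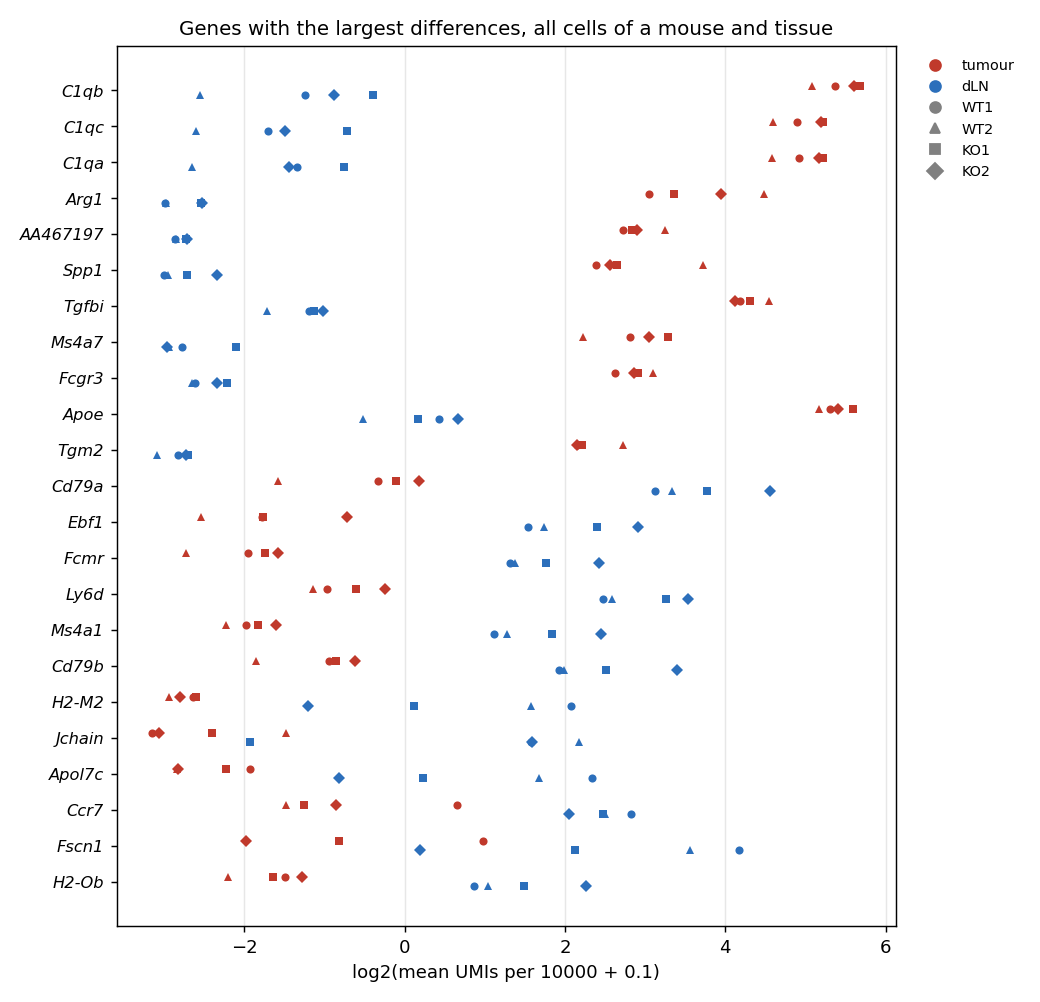
Level as log2(mean UMIs per 10000 + 0.1) of the genes reported here among the 12 with the largest difference in each direction, with 1 point per mouse and tissue, coloured by tissue and shaped by mouse. C1qb lay between 33.9 and 51.3 UMIs per 10000 in the tumours and between 0.070 and 0.663 in the dLN before the log, while Fscn1 and Jchain were the genes whose tissues overlapped.

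Genes of glycolysis and of the response to low oxygen were higher in the tumour almost without exception. Of 24 tested, 23 were higher in the tumour and none in the dLN, with a median difference of 2.31 against -0.03 over all genes. Their summed level was 129.9 to 144 UMIs per 10000 in the tumours and 24.4 to 25.8 in the dLN. Slc16a3 (chr11:120948480-120960868), the lactate exporter MCT4, had 2.86, 3.36, 3.01 and 2.79 against 0.0442, 0.0689, 0.0385 and 0.0562 (log2 difference 4.35, SE 0.08, limma adjusted p = 4.9e-07). Macrophage-like and monocyte-like cells carried 42.9% and 44.4% of its tumour level. Bnip3, a mitochondrial protein induced by low oxygen, had 2.64, 3.36, 2.89 and 3.15 against 0.120, 0.0781, 0.128 and 0.169 (log2 difference 3.81, SE 0.12, limma adjusted p = 2.1e-06). The 4 mice differed little from each other for both genes and the tissues lay far apart. The glycolytic enzymes Tpi1 (3.61), Pgam1 (3.07), Pkm (2.77) and Ldha (2.09), the glucose transporter Slc2a1 (2.53), the lipid droplet gene Hilpda (2.57) and the growth factor Vegfa (2.72) passed in the same direction. Adm, which encodes adrenomedullin, did not pass (-0.02).

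The core of the element bound by hypoxia-inducible factor, ACGTG, was searched on both strands in the 250 bases before the start of each gene, in RefSeq promoters of GRCm38.p6. It was found for 14 of the 22 members of this list with a promoter (63.64%), against 25.65% of tested genes and 16.57% of all promoters. The 200 bases before a RefSeq start of Slc16a3 (chr11:120948867-120949066, plus strand) and Bnip3 (chr7:138909507-138909706, minus strand), the members with the largest differences, are shown with the core in capitals. RefSeq starts can differ from GENCODE ones, and that of Slc16a3 lies inside the gene interval given above. Where a gene had several RefSeq promoters, the first with a match was shown, here and below. In Bnip3 the letters read the same on both strands, so CACGTG holds it on each. A match describes letters in this window and is no bound site.
Slc16a3: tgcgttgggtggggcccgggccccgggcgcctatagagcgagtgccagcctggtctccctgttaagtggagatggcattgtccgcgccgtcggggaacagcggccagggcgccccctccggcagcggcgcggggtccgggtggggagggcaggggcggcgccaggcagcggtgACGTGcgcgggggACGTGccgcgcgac
Bnip3: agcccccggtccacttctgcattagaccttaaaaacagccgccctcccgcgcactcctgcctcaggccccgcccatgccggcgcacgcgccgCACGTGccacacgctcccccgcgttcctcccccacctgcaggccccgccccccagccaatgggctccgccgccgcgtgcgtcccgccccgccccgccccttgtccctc

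Lists of matrix, lysosomal, lipid, arginine, iron and redox genes were also mostly higher in the tumour, as means over all cells. All 12 matrix proteases and inhibitors tested were, with the elastase Mmp12 at 4.06 and the membrane-bound collagenase Mmp14 at 3.71. Of 14 lysosomal genes 13 were, led by the proteases legumain, Lgmn (3.91), and cathepsin C, Ctsc (3.87), while Ctsf did not pass (0.06). Of 12 genes of lipid-associated macrophages 11 were, with the receptor Trem2 at 4.70, and Lpl did not pass (0.61). All 6 genes of arginine use were. Nos2, which makes nitric oxide from arginine, had 0.345, 0.452, 0.628 and 0.597 UMIs per 10000 against 0, 0.0017, 0.0025 and 0.0053 (log2 difference 2.54, SE 0.12, limma adjusted p = 8.1e-06). These dLN values rested on 7 UMIs in all, against 3478 in the tumours, so the size of the Nos2 difference is set largely by the pseudocount. Of 8 genes of iron and haem handling 7 were higher in the tumour, with haem oxygenase 1, Hmox1 (4.12), and the phagosomal metal transporter Slc11a1 (3.67) first. The transferrin receptor Tfrc, which brings iron into cells, was higher in the dLN (-0.25, adjusted p = 0.0314), a call lost when WT1, KO1 or KO2 was left out. Of 15 antioxidant genes 12 were higher in the tumour, such as peroxiredoxin 5, Prdx5 (3.68), and metallothionein 1, Mt1 (3.19), and catalase, Cat, was higher in the dLN (-0.70). The Mt1 difference was 2.26 in WT and 4.12 in KO mice (KO minus WT 1.86, SE 0.18, limma adjusted p = 0.0221), with 2.01, 1.62, 0.510 and 0.437 UMIs per 10000 in the dLN and 8.74, 9.35, 9.19 and 10.6 in the tumours. Mt1 was high in tumour macrophage-like cells (15.1, 16.9, 14.1 and 16.4) and also in dLN mature dendritic-like cells (9.28, 9.74, 5.29 and 8.70). Of the 6 subunits of the NADPH oxidase, which makes superoxide, 5 were higher in the tumour, with Cybb at 1.59, and the small GTPase Rac2 was higher in the dLN (-1.04).

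Complement and Fc receptor genes of phagocytes were higher in the tumour and those of B cells in the dLN. Of 12 complement genes 11 were higher in the tumour, among them the anaphylatoxin receptors C3ar1 (4.68) and C5ar1 (4.85) and the component C3 (2.69). The complement inhibitor Cd55 was higher in the dLN, with 0.029, 0.012, 0.0531 and 0.0982 UMIs per 10000 in the tumours and 0.453, 0.513, 0.752 and 1.41 in the nodes (log2 difference -2.49, SE 0.13, limma adjusted p = 1.2e-05). The tissues did not overlap for Cd55. Of 10 Fc receptor genes 6 were higher in the tumour, and these included Fcgr1 (5.01), Fcgr3 (5.33) and Fcgr4 (5.04), which bind IgG on phagocytes, and their signalling chain Fcer1g (3.86). The 4 higher in the dLN were the B cell genes Fcmr (-3.72), Fcer2a (-3.34), Fcrla (-2.63) and Fcrl1 (-2.13). Of 14 Toll-like receptor genes 11 were higher in the tumour, led by the lipopolysaccharide co-receptor Cd14 (4.77) and the lipoprotein receptor Tlr2 (2.94). Tlr11 was higher in the dLN (-0.31), and its difference was 0.13 without the dendritic-like clusters and also without the unnamed cluster beside them. Its values rested on 116 UMIs in the tumours and 273 in the dLN. All were below the pseudocount of 0.1, which largely sets the size of the difference.

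Most inflammasome and interleukin-1 (IL-1) family genes were higher in the tumour. Of 17 tested, 14 passed in that direction and none in the other. Il1b, the cytokine that inflammasomes cut to its active form, had 9.43, 14.2, 7.03 and 7.93 UMIs per 10000 in the tumours and 0.911, 1.31, 1.13 and 1.28 in the dLN (log2 difference 2.92, SE 0.16, limma adjusted p = 1.3e-05). Its sensor Nlrp3 had 0.370, 0.478, 0.404 and 0.429 against 0.0353, 0.0426, 0.0298 and 0.0241 (log2 difference 1.97, SE 0.08, limma adjusted p = 4.3e-06) and the protease Casp1 0.818, 0.706, 0.931 and 0.832 against 0.320, 0.246, 0.297 and 0.334 (log2 difference 1.21, SE 0.08, limma adjusted p = 2.9e-05). None of the 3 genes overlapped between tissues, and neither did Il1rn, the receptor antagonist, which had the largest difference of the list (4.08). Within the tumour Il1b was higher in monocyte-like cells (19.8, 18.6, 18.1 and 20.8) than in macrophage-like cells (2.51, 2.63, 2.25 and 2.50) of every mouse, and the neutrophil-like cells of WT1 and WT2 had 159 and 169. In the dLN type 2 conventional dendritic cell (cDC2)-like cells carried Il1b at 12.8, 9.14, 6.26 and 10.4. These levels by class have no test. Il18, a cytokine cut by the same protease, differed by 0.33 (limma adjusted p = 0.0117). Its levels were at most 0.0801, below the pseudocount, and the tumour of KO1 (0.04398) was just below the dLN of WT1 (0.04406). Aim2 (0.08), Il18r1 (-0.57) and Il18rap (0.46) did not pass.

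Among TIM-3 and its reported ligands, Lgals9, which encodes galectin-9, had 2.66, 2.43, 2.52 and 1.96 UMIs per 10000 in the tumours and 1.02, 1.01, 1.24 and 1.43 in the dLN (log2 difference 0.97, SE 0.14, limma adjusted p = 0.0011). Each tumour was above each dLN. Hmgb1, an alarmin, was slightly higher in the dLN (-0.23, adjusted p = 0.0353), a call lost without KO1 or KO2, and Ceacam1 did not pass (0.21). Of 10 genes for ligands of T cell receptors of costimulation and inhibition, 8 were higher in the tumour. Cd274, which encodes PD-L1, had 0.851, 1.16, 1.25 and 0.989 against 0.239, 0.204, 0.264 and 0.205 (log2 difference 1.82, SE 0.10, limma adjusted p = 1.6e-05), and the tissues did not overlap. Neutrophil-like tumour cells of WT1 and WT2 held 4.77 and 11.7 Cd274 UMIs per 10000. The costimulatory ligand Cd86 (1.58) and the PD-L2 gene Pdcd1lg2 (0.81) were also higher in the tumour, and Icosl, the ligand of ICOS, was higher in the dLN (-1.45).

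Interferon-responsive genes were higher in the tumour. Of 16 type I interferon-stimulated genes 15 passed in that direction (median 1.90), and Ifit1bl1 did not pass (0.20). Rsad2, the antiviral protein viperin, had 1.34, 1.41, 1.52 and 0.577 UMIs per 10000 against 0.041, 0.045, 0.116 and 0.0796 (log2 difference 2.89, SE 0.24, limma adjusted p = 8.7e-05). Isg15, a ubiquitin-like modifier, had 7.79, 6.78, 7.11 and 4.78 against 0.624, 0.725, 0.991 and 1.00 (log2 difference 2.84, SE 0.19, limma adjusted p = 3.7e-05). KO2 was the lowest tumour for both genes and still above every dLN. All 14 interferon gamma-responsive genes were higher in the tumour (median 1.75). Cxcl9, which draws CXCR3-bearing T cells, had 7.02, 4.74, 8.78 and 7.49 against 0.415, 0.220, 0.357 and 0.285 (log2 difference 4.07, SE 0.10, limma adjusted p = 8.3e-07). In cDC1-like cells of the dLN Cxcl9 was at 8.0, 2.76, 3.29 and 5.37, against tumour macrophage-like levels of 9.04, 4.88, 11 and 8.84. A pair of GAAA separated by 2 bases, the core of the interferon-stimulated response element, was found within 250 bases before the start of 7 of the 12 type I members with a promoter (58.33%), against 3.54% of tested genes and 2.98% of all promoters, on either strand. The 200 bases before Rsad2 (chr12:26456453-26456652, minus strand) and Isg15 (chr4:156200819-156201018, minus strand), the members with the largest differences, carry it in capitals, on the opposite strand in Rsad2 and as overlapping matches in Isg15.
Rsad2: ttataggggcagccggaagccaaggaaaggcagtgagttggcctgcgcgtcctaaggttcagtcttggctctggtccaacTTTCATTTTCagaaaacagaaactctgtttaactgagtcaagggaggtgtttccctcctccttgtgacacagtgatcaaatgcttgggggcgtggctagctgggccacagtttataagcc
Isg15: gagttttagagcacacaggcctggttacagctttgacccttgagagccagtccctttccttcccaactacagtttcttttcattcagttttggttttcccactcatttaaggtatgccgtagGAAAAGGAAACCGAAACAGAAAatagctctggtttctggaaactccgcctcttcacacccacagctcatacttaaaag

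Antigen presentation genes did not share 1 direction. Of 10 MHC class II genes 3 were higher in the tumour, 4 in the dLN and 3 did not pass, with a median of 0.18. The peptide-loading genes H2-DMb1 (2.00) and H2-DMa (0.77) and the presenting chain H2-Ab1 (0.77) were higher in the tumour. H2-DMb2 (-2.37), the modulators H2-Oa (-2.35) and H2-Ob (-3.07) and the regulator Ciita (-0.81) were higher in the dLN. H2-DMb1 and H2-DMb2 are close copies that short reads may split unevenly. Of 15 MHC class I genes 6 were higher in the tumour, such as the peptide transporter Tap1 (0.75) and the immunoproteasome subunit Psmb10 (0.74), 2 in the dLN and 7 did not pass.

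Most chemokine genes were higher in the tumour. Of 12 CC chemokines 8 were higher in the tumour, Ccl22 and Ccl17 (-0.47) were higher in the dLN, and 2 did not pass. Ccl2, the main monocyte attractant, had 4.80, 4.36, 4.68 and 5.47 UMIs per 10000 against 0.0652, 0.0138, 0.0617 and 0.0357 (log2 difference 5.11, SE 0.11, limma adjusted p = 5.5e-07), and Ccl12 differed by 5.10. Every tumour was far above every dLN. Ccl22 had 0.348, 0.0893, 0.0736 and 0.0221 against 1.95, 1.74, 0.295 and 0.138 (log2 difference -1.91, SE 0.36, limma adjusted p = 0.0035), and the tumour of WT1 was above the dLN of KO1 and KO2. Mature dendritic-like cells carried 94.0% of its dLN level, and its difference was 0.33 without the dendritic-like clusters and 0.23 without the unnamed cluster as well. Of 7 CXC chemokines 6 were higher in the tumour, with the neutrophil attractant Cxcl2 at 4.96. Of 12 chemokine receptors, 4 of myeloid cells were higher in the tumour, including Ccr1 (4.58), Cx3cr1 (3.26) and Ccr2 (2.34), and 7 in the dLN, led by Ccr7 (-3.20), Ccr6 (-2.19) and the follicle-homing Cxcr5 (-2.05). The sphingosine receptor S1pr2 was the member of the follicle-homing list that was higher in the tumour (1.21).

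Dendritic cell markers were uneven. Mature dendritic-like cells were 2.01, 0.299, 0.148 and 0.211% of tumour cells and 19.6, 15.7, 4.32 and 1.65% of dLN cells, so the WT nodes held more than the KO nodes and the tumour of WT1 more than the dLN of KO2. Of 12 mature dendritic markers 10 were higher in the dLN and none in the tumour. Of 10 cDC2 markers 7 were higher in the dLN, and Sirpa (2.40) and Itgax (1.67), which macrophages also express, were higher in the tumour. Of 10 cDC1 markers 4 were higher in the tumour, led by Ifi205 (1.86), and 2 in the dLN, Itgae (-0.99) and Xcr1 (-0.43, a call lost without WT1 or KO1). Ifi205 is also a leading gene of the unnamed cluster found only in tumours. Without that cluster, cDC1-like cells were 2.54, 1.89, 0.369 and 1.48% of tumour cells and 4.21, 2.18, 7.27 and 3.64% of dLN cells. Their share was thus lower in the tumour of each mouse, although the tissues overlapped (exact sign-flip p = 0.125). Of 9 plasmacytoid dendritic cell markers 7 were higher in the dLN, led by Ly6d (-3.70), also a B cell gene, and Siglech (-2.81), and Bst2, an interferon-induced gene, was higher in the tumour (0.93). Without the dendritic-like clusters Xcr1 differed by 0.44, and the growth factor receptor Flt3 by 0.27 in place of -1.59, while Siglech did not pass (0.23, adjusted p = 0.0749). With the unnamed cluster left out as well Xcr1 was at 0.42, and Siglech (0.24, adjusted p = 0.0708) and Flt3 (0.17, adjusted p = 0.0779) did not pass.

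**Figure D3:**
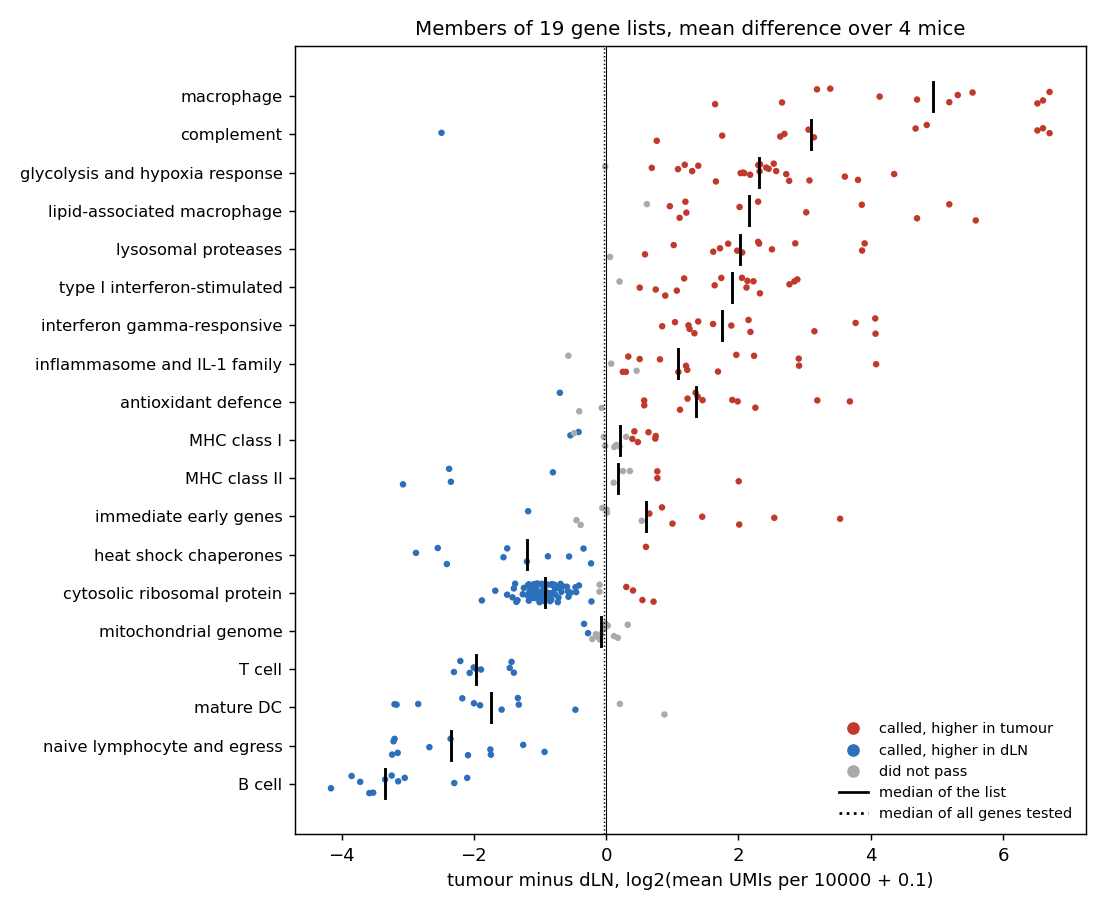
Tumour minus dLN difference in log2(value + 0.1) for each tested member of 19 gene lists, with 1 point per gene coloured by its call, a bar at the list's median and a dotted line at the median of all genes. The 23 glycolysis and hypoxia genes that passed lay to the right of 0, while 79 of 85 ribosomal protein genes and 10 of 11 heat shock genes were higher in the dLN.

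Heat shock chaperones went the other way. Of 11 tested, 10 were higher in the dLN, and Hspa5, the chaperone of the endoplasmic reticulum, was higher in the tumour (0.60). Hspa1a (chr17:34969190-34972156), the inducible HSP70, had 0.593, 1.02, 0.737 and 0.601 UMIs per 10000 in the tumours and 3.58, 4.30, 7.79 and 10.2 in the dLN (log2 difference -2.87, SE 0.29, limma adjusted p = 0.0002). The KO nodes were above the WT nodes and every node above every tumour. Its near-identical copy Hspa1b differed by -2.55, and reads may be split between the copies, so each value alone is uncertain. Their partners Dnajb1 (-2.41), Dnaja1 (-1.55) and Hsph1 (-1.50) passed in the same direction. In B-like cells of the dLN Hspa1a was at 4.6, 6.95, 10.6 and 12.7, in cDC1-like cells at 3.67, 10.0, 12.3 and 9.34 and in mature dendritic-like cells at 5.63, 4.73, 14.1 and 19.9. Tumour B-like cells of WT1 and KO1 had 3.17 and 3.23 and tumour macrophage-like cells 0.785, 1.36, 0.965 and 0.591. The non-draining nodes of the same mice had 3.94, 4.35, 3.72 and 6.04. Heat shock genes also answer to the handling of cells, and its part cannot be told apart from that of the tissue. The letters GAANNTTC, an inverted pair of heat shock units, lay within 250 bases before the start of 5 of the 8 chaperone genes with a promoter (62.5%), on either strand, against 6.08% of tested genes and 6.69% of all promoters. Hspa1a and Hspa1b are both among the 5, and their 200 bases before the start are nearly the same, so these matches are not separate. The letters are in capitals in the 200 bases before Hspa1a (chr17:34972157-34972356, minus strand) and Dnaja1 (chr4:40722268-40722467, plus strand).
Hspa1a: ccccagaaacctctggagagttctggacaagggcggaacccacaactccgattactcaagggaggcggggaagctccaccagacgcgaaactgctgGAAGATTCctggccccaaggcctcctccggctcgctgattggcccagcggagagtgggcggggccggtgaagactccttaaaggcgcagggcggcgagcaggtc
Dnaja1: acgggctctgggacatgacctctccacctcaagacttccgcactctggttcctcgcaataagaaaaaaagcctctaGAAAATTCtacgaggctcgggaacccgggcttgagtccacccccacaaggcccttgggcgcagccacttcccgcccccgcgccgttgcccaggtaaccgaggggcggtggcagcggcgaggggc

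Of 85 cytosolic ribosomal protein genes 79 were higher in the dLN (median -0.93), and their summed level was 3133 to 3401 UMIs per 10000 there against 1517 to 1700 in the tumours. Rps27 had 14.4, 15, 13.5 and 16.4 in the tumours and 48.5, 60.3, 49.5 and 62.2 in the dLN (log2 difference -1.88, SE 0.06, limma adjusted p = 1.5e-06), with no overlap. It has a near-identical copy, Rps27rt, between which reads may be split, so its level is uncertain. In CD8 T-like cells Rps27 was at 32.1, 29.0 and 41.7 in the tumours of WT1, KO1 and KO2 and at 62.8, 72.3, 64.5 and 69.7 in the 4 nodes. The 4 genes of this name pattern that were higher in the tumour, Rps27l (0.72), Rps19bp1 (0.55), Rpl7l1 (0.41) and Rpl3l (0.30), are paralogues or a binding partner of ribosomal proteins. Of 13 genes of the mitochondrial genome 11 did not pass and 2 were slightly higher in the dLN, mt-Co3 (-0.33) and mt-Nd2 (-0.27), the first lost without KO1 and the second without WT1, KO1 or KO2. Of 14 immediate early genes 7 were higher in the tumour, led by Ier3 (3.54) and Atf3 (2.54), and Nr4a1, induced by antigen receptor signals, was higher in the dLN (-1.18). Of 16 proliferation genes 13 were higher in the tumour, with the mitotic genes Birc5 at 1.25 and Cdk1 at 1.12, and 3 did not pass.

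Lymphocyte genes were mostly higher in the dLN, but effector genes were not. All 9 T cell genes and all 11 genes of naive lymphocytes and of exit from the node were higher in the dLN, including the transcription factors Tcf7 (-3.24) and Lef1 (-3.21). Of 9 cytotoxic effector genes 5 were higher in the tumour and none in the dLN. Gzmb (chr14:56258838-56262260), which encodes the killing protease granzyme B, had 4.33, 0.432, 3.53 and 2.51 UMIs per 10000 in the tumours and 0.0361, 0.177, 0.0778 and 0.122 in the dLN (log2 difference 3.47, SE 0.60, limma adjusted p = 0.0024). WT2, with the fewest tumour T-like cells, was the lowest tumour and still above every dLN. Within the tumour Gzmb was at 58.4, 71.9 and 50.8 in CD4 and regulatory T-like cells and at 18.7, 22.7 and 8.98 in CD8 T-like cells of WT1, KO1 and KO2. Of 9 checkpoint genes 3 were higher in the tumour, Entpd1 (2.99), Havcr2 (1.96) and Pdcd1 (1.17), and 3 in the dLN, led by Btla (-2.11). These are means over all cells and not levels of T cells, and Havcr2 was also present in tumour monocyte-like and macrophage-like cells, as given above. Foxp3 (0.34, adjusted p = 0.159) and the NK receptor Ncr1 (0.10, adjusted p = 0.810) did not pass.

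To compare T cells with T cells, the T-like clusters were tested alone, with 131, 15, 111 and 38 cells in the tumours and 501, 521, 387 and 380 in the dLN. Of 7038 genes, 1544 (21.9%) differed, 1086 higher in the tumour (15.4%) and 458 in the dLN (6.51%). A voom fit with TMM scaling gave 1189 and 965, and leaving out WT1, KO1 or KO2 left 863, 922 and 988 calls in all. Different clusters held most T-like cells of each tissue, a cluster led by Cd8b1 and Dapl1 in the dLN (910 dLN and 13 tumour cells) and ones led by Rgs16 and Gzmf (165 tumour, 5 dLN) and by Gzmb and Tnfrsf4 (84 tumour, 1 dLN) in the tumour. Genes that define clusters, here the 10 leading genes of each T-like cluster, are therefore given only from a gate that used no clusters. It took cells with a UMI of at least 2 of Cd3d, Cd3e and Cd3g and none of Cd79a, Ms4a1, C1qa, C1qb or Lyz2, which left 91, 10, 75 and 29 tumour cells and 381, 459, 301 and 333 dLN cells. In the gate 1042 of 7020 genes differed (14.8%), 717 higher in the tumour (10.2%) and 325 in the dLN (4.63%). With voom and TMM these were 705 and 780. Leaving out WT1, KO1 or KO2 gave 610, 667 and 596 calls in the gate, and leaving out WT2 gave 1748. Of the genes called higher in the tumour in the gate 96.8% were also called in the clusters, and 63.9% the other way round. Both the clusters and the gate pooled T cell subsets. In the tumours 182 cells were CD8 T-like, 8 CD4 T-like and 105 CD4 and regulatory T-like, against 990, 505 and 294 in the dLN. The part of this mix in the T cell differences was not tested.

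Gated tumour T cells carried cytotoxic genes and most glycolysis and checkpoint genes at higher levels than gated dLN T cells. Gzmb had 35.0, 13.4, 34.5 and 27.6 UMIs per 10000 against 0.058, 0.101, 0.123 and 0.428 (log2 difference 6.71, SE 0.30, limma adjusted p = 1.1e-06). Pdcd1, which encodes PD-1, had 5.39, 2.92, 9.88 and 3.29 against 0.345, 0.0406, 0.225 and 0.298 (log2 difference 4.02, SE 0.28, limma adjusted p = 1.6e-05). Lag3, another inhibitory receptor, had 7.42, 1.58, 14.6 and 7.16 against 0.0865, 0.0941, 0.127 and 0.170 (log2 difference 4.80, SE 0.38, limma adjusted p = 2.7e-05). WT2, with 10 gated cells, was the lowest tumour for all 3 genes, and no tumour overlapped a dLN. Ccl4, a chemokine of activated T cells, had 31.7, 0.541, 24.3 and 80.0 against 0.0385, 0.197, 0.567 and 0.138 (log2 difference 5.64, SE 0.92, limma adjusted p = 0.0021), the widest spread among tumours, and WT2 was below the highest dLN. Serpina3g, a protease inhibitor of activated T cells that defined no cluster, had 2.54, 2.93, 3.08 and 3.44 against 0.0685, 0.0997, 0.144 and 0.104 (log2 difference 3.93, SE 0.20, limma adjusted p = 1.6e-06). Of 8 checkpoint and exhaustion genes 5 were higher in the tumour, Btla was higher in the dLN (-1.55), and Tox (-1.01, adjusted p = 0.13) and Cd160 (0.54, adjusted p = 0.487) did not pass. The costimulatory receptor Tnfrsf9 (5.15), Rgs16 (4.71) and Klrc1 (4.07) were also among the largest. All 6 tested cytotoxic genes and 16 of 20 glycolysis genes were higher in tumour T cells and none in dLN T cells, with medians of 2.45 and 1.58 against 0.09 over all genes. All 6 regulatory T cell genes tested were higher in the tumour (median 2.67), as were 11 of 15 MHC class I genes.

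Naive, heat shock and ribosomal genes were lower in tumour T cells. Of 11 naive and exit genes 10 were higher in gated dLN T cells. Tcf7 had 0.635, 1.04, 0.108 and 0.931 UMIs per 10000 against 3.56, 3.12, 3.48 and 3.70 (log2 difference -2.45, SE 0.35, limma adjusted p = 0.00095), with KO1 lowest and no overlap. Igfbp4 (-3.57), Dapl1 (-2.76), Lef1 (-2.14) and the transcription factor Klf2 (-1.81) passed in the same direction. Hspa1a had 0.443, 0, 0.486 and 0.293 against 1.23, 1.67, 3.07 and 3.18 (log2 difference -2.73, SE 0.38, limma adjusted p = 0.00073), and 8 of 11 heat shock genes were higher in the dLN and none in the tumour. Of 84 ribosomal protein genes 75 were higher in dLN T cells (median -0.71). Rplp1, a stalk protein of the ribosome, had 35.0, 50.7, 29.1 and 34.7 against 82.5, 88.9, 82.5 and 85.6 in the T-like clusters (log2 difference -1.21, SE 0.11, limma adjusted p = 3.3e-05), and no tumour overlapped a dLN. The T-like clusters also gave genes that defined no cluster. Ly6a, the interferon-induced Sca-1, had 37.2, 28.2, 34.2 and 28.2 against 2.41, 3.16, 2.93 and 3.14 (log2 difference 3.41, SE 0.13, limma adjusted p = 2.3e-07). Irf8 (3.87), the receptor Klrk1 (3.59), the cytokine signal inhibitor Cish (3.55) and Bhlhe40 (3.50) followed. T-like tumour cells held 0.374 C1qb UMIs per 10000 and T-like dLN cells 0.160, so macrophage RNA was present in both at a low level, and its part in these T cell differences was not tested. Tumour T cells were deeper as well, with a median of 6437 against 4763 UMIs.

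**Figure D4:**
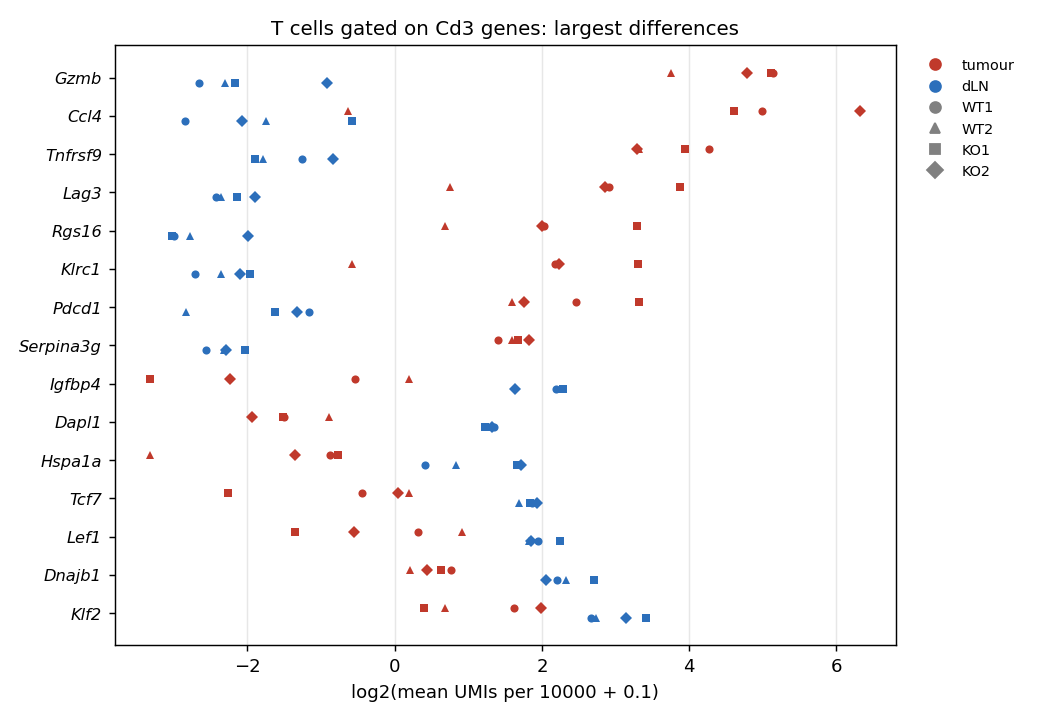
Level as log2(mean UMIs per 10000 + 0.1) of the genes reported here among the 8 with the largest difference in each direction in T cells gated on Cd3 genes, with 1 point per mouse and tissue, coloured by tissue and shaped by mouse. Gzmb lay between 13.4 and 35.0 UMIs per 10000 in tumour T cells and between 0.058 and 0.428 in dLN T cells, and Tcf7 was lower in all 4 tumours.

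Few genes passed a test of whether the tissue difference itself differed between KO and WT mice. With 2 mice per genotype, genes that did not pass may still differ, and 1644 had an unadjusted p under 0.05 (limma). This test of genotype by tissue called 84 of 11542 genes (0.728%), 63 with a KO difference above the WT one and 21 below (limma, 2 mice per genotype). The count was 5 without KO1, 105 without WT2 and 361 without WT1. Without KO2 limma called 0 genes, with 976 at an unadjusted p under 0.05, and a voom fit of all 4 mice called 101. Epsti1 (chr14:77904239-78002657), an interferon-responsive gene, had 18.2, 14.4, 4.27 and 2.46 UMIs per 10000 in the dLN and 2.03, 1.38, 2.08 and 1.58 in the tumours. Its tissue differences were -3.10, -3.29, -1.0 and -0.61, and the KO minus WT difference was 2.39, SE 0.16, adjusted p = 0.0061. Mfge8, a bridge in the uptake of dying cells, had 1.57, 1.24, 0.273 and 0.151 in the dLN (KO minus WT 2.21, SE 0.15, adjusted p = 0.0061), and Clu, which encodes the secreted chaperone clusterin, 1.30, 1.22, 0.220 and 0.0899 (3.10, SE 0.27, adjusted p = 0.014). In all 3 genes both WT nodes were above both KO nodes. Selm (2.30, SE 0.14, adjusted p = 0.0061) and Tm4sf5 (1.59, SE 0.13, adjusted p = 0.014) were called in the same direction. Mature dendritic-like cells were 19.6% and 15.7% of the WT nodes and 4.32% and 1.65% of the KO nodes, and Epsti1, Mfge8 and Clu are among the 10 leading genes of that cluster. Within dLN mature dendritic-like cells Epsti1 was at 83.3, 79.4, 47.5 and 41.8 and Mfge8 at 7.50, 7.45, 4.51 and 3.83, so the KO nodes were below the WT nodes there too. The part of the cell share in these calls was not tested.

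In the other direction Wfdc17, a secreted protease-inhibitor-like protein of myeloid cells, had 0.227, 0.330, 0.798 and 0.964 UMIs per 10000 in the dLN and 2.35, 2.68, 1.45 and 1.42 in the tumours (KO minus WT -2.15, SE 0.15, adjusted p = 0.0061). KO nodes were above WT nodes and KO tumours below WT tumours. Jun, a subunit of the AP-1 transcription factor, had 2.00, 1.79, 3.73 and 4.55 in the dLN and 4.15, 4.62, 3.92 and 3.80 in the tumours (KO minus WT -1.26, SE 0.16, adjusted p = 0.036), so its excess in the tumour was present in WT mice and close to 0 in KO mice. Cd24a (-1.20, SE 0.13, adjusted p = 0.0257), Kmo (-1.41, SE 0.18, adjusted p = 0.0355) and Gpr183 (-1.0, SE 0.13, adjusted p = 0.0374) were also called. Among the lists, 3 of 15 antioxidant genes were called with a KO minus WT value above 0, Mt1, Mt2 (1.73) and Txn1 (1.01). The called value was below 0 for 2 of 10 MHC class II genes, H2-DMb2 (-1.05) and H2-Oa (-1.02), for 2 of 14 immediate early genes, Jun and Ier3 (-0.89), and for 2 of 17 inflammasome and IL-1 genes. No other list had over 1 call. These members were picked out after their values were seen. For Il1b the tissue differences were 3.24, 3.35, 2.53 and 2.55 (KO minus WT -0.75, SE 0.11, adjusted p = 0.0423), and both KO mice were below both WT mice. Its adjusted p ranged from 0.0247 to 0.328 over the alternatives, with the highest value without KO2. For the decoy receptor Il1r2 the differences were 2.68, 2.81, 1.84 and 1.61 (KO minus WT -1.02, adjusted p = 0.049). No limma call was made among the 24 glycolysis genes (1 at an unadjusted p under 0.05 and 0 by voom) or the 11 heat shock genes (5 and 1). Over all 11542 genes these figures were 1644 and 101. Lists with at most 1 call could still hold many genes at that unadjusted p, such as 14 of 15 MHC class I and 10 of 12 mature dendritic genes.

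**Figure D5:**
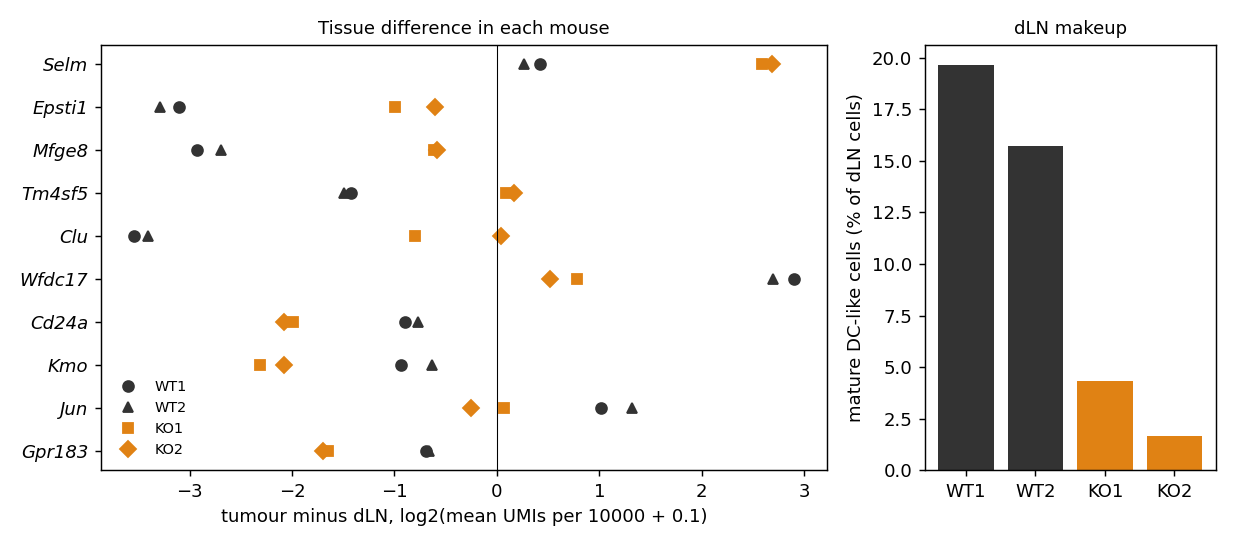
Tumour minus dLN difference in log2(value + 0.1) of the 10 genes with the smallest p for a genotype difference, 5 per direction, with 1 point per mouse, beside the share of mature dendritic-like cells in each dLN in percent as bars from 0. Epsti1 lay at -3.10 and -3.29 in the WT mice and at -1.0 and -0.61 in the KO mice, and the share was 19.6% and 15.7% against 4.32% and 1.65%.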

How the data were processed

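CD45+ cells of the tumour, draining and non-draining lymph node of 4 mice were profiled with the 10x 5' kit in 2 channels, and samples were told apart by oligo-tagged CD45 antibodies, per the labels' protocols. The authors' processing used Cell Ranger 3.0.2 and mm10, per the submitters' processing notes. The deposited values are natural log values, ln(1 + 10000 × UMIs / total UMIs of the cell), with cells assigned to samples in a deposited table. They were transformed back to UMIs per 10000, and the UMIs of a cell were recovered as whole numbers within 0.01. No doublet caller was run here, and whether doublets were removed before deposit is not given in the sources used here.

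For each mouse and tissue 1 mean was taken over all cells. Genes with a UMI in at least 1% of cells were tested with limma 3.58.1 (R 4.3.3) with a trend on log2(mean + 0.1), with the mouse as a term, 2-sided, with Benjamini-Hochberg adjustment over all tested genes and a threshold of 0.05. The genotype difference is the interaction of tissue and genotype in that fit. Shares of cells were compared with an exact sign-flip permutation test over mice. Both tissues come from the same animal, which sets the pairing. Deviations of a mouse's 2 tissues from the tissue means correlated across genes at 0.167, -0.0449, 0.0810 and 0.0678 for WT1, WT2, KO1 and KO2. The 4 mice are separate animals, but with 2 per genotype the spread is poorly known.

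Clusters came from Leiden clustering (scanpy 1.11.5, leidenalg 0.10.2, resolution 1, 2000 variable genes, 30 principal components, 15 neighbours), which gave 27 clusters. They were named from 16 marker lists, and T cells were tested with genes seen in at least 5% of them. Text genes were the 12 largest differences in each direction with a level of at least 2 UMIs per 10000 and the same direction in 4 of 4 mice, up to 2 leading and 1 opposite member per list, and a fixed set. Within T cells up to 8 genes per direction were taken, and for genotype 5. A few of these genes are not reported here. Other list members were chosen after their values were seen. The comparison, the 47 lists and the fixed genes were chosen with earlier results of these data known. Rps6k kinases were removed from the ribosomal name pattern after values were seen. Promoters and their letters come from RefSeq (GRCm38.p6), and gene positions from GENCODE (GRCm38, mm10). Alternatives included voom with TMM scaling on summed UMIs, and the gate on Cd3 genes and the removal of the unnamed cluster with dendritic markers were added after the data were seen. The scripts were tested on simulated data.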

Additional observations from a re-analysis of the deposited data

Results flagged for a closer look

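In 15 of 264 groups of 4 mice 1 mouse lay apart from the other 3 by Dixon's criterion, which compares its gap to the nearest mouse with the range. Chance alone flags about 1 in 20 such groups. The tumour of WT2 was the high one for Spp1 (13.1 UMIs per 10000), Tgm2 (6.50), Ier3 (9.05) and Tfrc (0.0808), and its T-like cells were the lowest share of a tumour (1.5%). The dLN of WT2 was highest for G0s2 (0.156) and for the share of NK-like cells (1.80%), and lowest for Sirpa (0.190). The dLN of KO1 was highest for Ms4a7 (0.132) and Cd14 (0.103), its tumour was highest for Entpd1 (1.91) and lowest for Rps27l (2.46). The tumour of WT1 was highest for Ccr7 (1.47), and its share of mature dendritic-like cells was 2.01% against at most 0.299% in the other tumours. The dLN of WT1 was highest for Cat (1.01), and the dLN of KO2 was lowest for Lef1 (0.987).

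The tissue difference differed between the 2 KO and the 2 WT mice by the interaction test for 20 genes given here. The signed tumour minus dLN value was higher in KO mice for Selm (2.30), Epsti1 (2.39), Mfge8 (2.21), Tm4sf5 (1.59), Clu (3.10), H2-M2 (2.45), Apol7c (2.16), Mt1 (1.86), Mt2 (1.73) and Txn1 (1.01). It was lower for Wfdc17 (-2.15), Cd24a (-1.20), Kmo (-1.41), Jun (-1.26), Gpr183 (-1.0), H2-DMb2 (-1.05), H2-Oa (-1.02), Il1r2 (-1.02), Ier3 (-0.89) and Il1b (-0.75), as differences of log2(value + 0.1). The dLN excess was thus smaller in KO mice for Epsti1, Mfge8, Clu, H2-M2 and Apol7c, and larger for Cd24a, Kmo, Gpr183 and H2-DMb2. Leaving out KO2 left none of the 84 calls past the threshold.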

How the results depend on the processing

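The 5 broad cell shares kept their direction under all alternatives run, with an exact p of 0.25, the smallest that 3 mice allow, for 4 of them when 1 mouse was left out and 0.25 to 0.75 for NK-like cells. Of 129 genes taken by the rule for naming 105 kept their direction and their side of the threshold under each of the 22 alternatives in which they were tested, and 13 of the 129 were not tested with detection in 5% of cells. Without the dendritic-like clusters 8 had the opposite sign, at 0.19 (H2-M2), 0.34 (Apol7c), 0.89 (Fscn1), 0.23 (Siglech), 0.33 (Ccl22), 0.13 (Tlr11), 0.44 (Xcr1) and 0.27 (Flt3), and without the unnamed cluster with cDC1 and cDC2 markers as well they were at 0.17, 0.34, 0.89, 0.24, 0.23, 0.13, 0.42 and 0.17. H2-M2 and Siglech did not pass in either fit, nor Flt3 in the second. Averaging log2(1 + UMIs per 10000) per cell called 5493 genes higher in the tumour and 2291 in the dLN. The count of 1416 genes of at least 2-fold became 3085 with a pseudocount of 0.01, 340 with 1, 241 with means of log2 values, 209 with those after thinning, 3113 with voom and TMM and 3150 with voom alone. Without the replicate block, that is without pairing by mouse, 3592 and 3833 genes were called, and 1177 and 478 in T-like cells; no call of a count moved by over 1.5 times. The 84 genotype calls became 8 (7 higher and 1 lower in KO) with a pseudocount of 0.01, and those higher in KO became 39 with detection in 5% of cells. Leaving out 1 mouse gave 0 to 361 (976 to 1677 at an unadjusted p under 0.05), with 0 to 226 higher and 0 to 135 lower, lowest without KO2 and highest without WT1. In T-like cells voom with TMM called 965 genes higher in the dLN, and in gated T cells 780. Leaving out 1 mouse gave 863 to 2239 calls in T-like cells (583 to 1577 and 255 to 662) and 596 to 1748 in gated T cells (388 to 1235 and 189 to 513). The highest counts came without WT2, as did requiring 20 cells, which drops WT2 (1748, 1235 and 513). The tumour of WT2 had 15 T-like cells, which limits what its T cell levels can show.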

Other observations

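Some smaller lists showed no single direction. Of 8 plasma cell genes 4 were higher in the dLN, led by Jchain and by the immunoglobulin chaperone gene Mzb1, which had 0.105, 0.0849, 0.177 and 0.0915 UMIs per 10000 in the tumours and 1.88, 1.19, 1.39 and 3.10 in the nodes (log2 difference -3.14, SE 0.24, limma adjusted p = 6.8e-05). The transcription factors Xbp1 (1.09) and Prdm1 (1.04), which many other cells use, were higher in the tumour. Of 7 genes of TGF-beta and IL-10 signalling 5 were higher in the tumour, such as Tgfb1 (0.92) and the receptor chain Il10ra (1.25). The receptor Tgfbr2 (-1.10) and the pathway inhibitor Smad7 (-0.75) were higher in the dLN. Of 8 NK cell genes 2 were higher in the tumour, Tyrobp (2.25) and Klrk1 (1.27), and the first is also an adaptor of macrophage receptors. All 4 neutrophil genes were higher in the tumour. Among them S100a8, a calcium-binding alarmin, had 3.79, 5.74, 0.365 and 1.07 against 0.363, 0.211, 0.003 and 0.0012 (log2 difference 3.25, SE 0.30, limma adjusted p = 0.00014). It was higher in WT than in KO mice in both tissues, but its KO dLN values rested on 1 UMI each. Neutrophil-like cells numbered 23, 24, 6 and 5 in the tumours and 1, 5, 0 and 1 in the dLN. The genotype difference in S100a8 level was not tested. Of 7 genes of non-leukocytes 4 were higher in the tumour, including podoplanin, Pdpn (3.05), and the collagen gene Col3a1 (1.19), and 3 in the dLN, including Pecam1 of endothelial cells (-1.0).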
